A study of Arabidopsis thaliana with 60 samples.

Results

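Transcript levels of all genes were compared between 3 libraries of leaves infiltrated with flg22 and 3 libraries of Mock-infiltrated leaves, all collected 180 min after treatment. These 6 libraries were chosen by their labels for treatment and time from a series of 60. The series measured transcript abundance by Smart-3SEQ, which sequences a tag from the 3′ end of each polyadenylated RNA, in adult Arabidopsis thaliana leaves after flg22, estradiol (Ed), both together or Mock, at 0, 60, 120, 180 and 300 min. Each of the 20 groups held 3 libraries, 1 from each of 3 independent experiments, and replicate numbers below are experiment numbers. Every plant, Mock plants included, was of the Col-0 ecotype with the genotype dde2 ein2 pad4 sid2 Ed-AvrRpt2. It therefore carried mutations in a jasmonate synthesis gene (DDE2, also called AOS), an ethylene signalling gene (EIN2), a lipase-like regulator of defence (PAD4) and a salicylic acid synthesis gene (SID2, also called ICS1), with a transgene for the bacterial protease AvrRpt2 that Ed induces. The flg22 solution was 1 µM flg22, the Mock solution was 0.1% ethanol, and the Ed solution used further on was 10 µM estradiol in 0.1% ethanol. The labels give no ethanol for flg22. Effects of the peptide and of the solvent thus cannot be told apart in the comparison with Mock, and the solvent differs likewise in that with Ed. Leaves came from 4-week-old plants, and each library pooled the infiltrated leaves of 2 plants, so it averages over plants and over every cell type of the leaf.

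As background, flg22 is a peptide from the flagellin of bacteria. At the plasma membrane it binds the receptor kinase FLS2, which then joins the co-receptor BAK1, and cytoplasmic kinases such as BIK1 pass the signal to an oxidative burst, calcium channels and MAP kinase cascades. Transcription factors of the WRKY family bind the W-box and take part in the transcriptional response, which in leaves includes receptor kinases, secretion, and the synthesis of antimicrobial compounds and of lignin. This form of immunity is known as pattern-triggered immunity, and the series' design text assigns the flg22 treatment to it alone.

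The flg22 libraries held 4.07, 3.73 and 3.25 M counts and the Mock libraries 4.03, 4.33 and 1.88 M, within the range of 1.46 to 4.67 M over the series, and 17811 to 19178 genes had at least 1 count in each. Levels are counts per M (CPM) scaled by TMM factors. A count of 0 allows up to 3 counts, which was 0.693 to 1.6 CPM in these libraries. Spearman correlations across genes were 0.934 to 0.97 among flg22 libraries and 0.917 to 0.97 among Mock libraries, and by clock genes all 6 libraries were nearest to the other libraries labelled 180 min. The clock genes set apart 4 other libraries of experiment 2, those labelled Mock 0 min, Mock 60 min, Mock 300 min and flg22 0 min. None of these 4 is among the 6 compared here. The libraries labelled Mock 60 min and Mock 300 min enter the comparisons at those times below, and all 4 enter the fit that sets the spread, so counts without them are given as well. The 5 mesophyll markers summed to 34265, 25706 and 28232 CPM in flg22 leaves and to 41279, 31506 and 43591 CPM in Mock leaves. Of 4 root markers RHD6, COBL9 and PYK10 had 0 counts, and SCR had 17.43, 27.5 and 18.3 CPM in flg22 leaves and 14.4, 15.7 and 11 CPM in Mock leaves. SCR was not called (0.60 on the log2 scale, adjusted p = 0.0863), but was without the 4 libraries (adjusted p = 0.0354). Of 4 flower markers AP3 and AMS had 0 counts, and all 4 summed to 0.942, 1.27 and 0.322 CPM in flg22 leaves and to 0.232, 1.81 and 0 CPM in Mock leaves.

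Of 16763 genes tested, 2354 were higher in flg22 leaves and 1369 were lower (edgeR quasi-likelihood test, Benjamini-Hochberg adjusted p under 0.05), which is 14% and 8.17% of the genes tested. Without the 4 libraries set apart, 2948 were higher and 1899 lower. Both the number and the size of the changes leaned to rises. At least 8-fold changes were seen in 774 genes that rose and in 2 that fell, and 309 genes rose at least 32-fold. The median rise was 2.06 on the log2 scale (10th to 90th percentile 0.86 to 5.46), and the median fall was -0.96 (-1.43 to -0.64). Over all genes tested the median log2 fold change was -0.06. Among the genes that rose, 2344 did so in all 3 experiments and 2298 had no overlap between the groups, and 83 had 0 counts in all Mock leaves. These genes were called on the same libraries, so this agreement is largely set by the test and is no separate support. The genes that rose took 20%, 26.7% and 25.9% of all counts in flg22 leaves, against 4.37%, 5.69% and 5.69% in Mock leaves. The genes that fell took 14.2%, 10.9% and 10.9% in flg22 leaves, against 22.4%, 20.1% and 20.9% in Mock leaves. The falls depended more on single libraries than the rises: 467 genes were lower without flg22 replicate 2, 650 without Mock replicate 1 and 697 without flg22 replicate 3, while the count of rises stayed between 1665 and 2367. Both directions together came to 2324 without flg22 replicate 2 and to 2315 without Mock replicate 1.

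**Figure D1:**
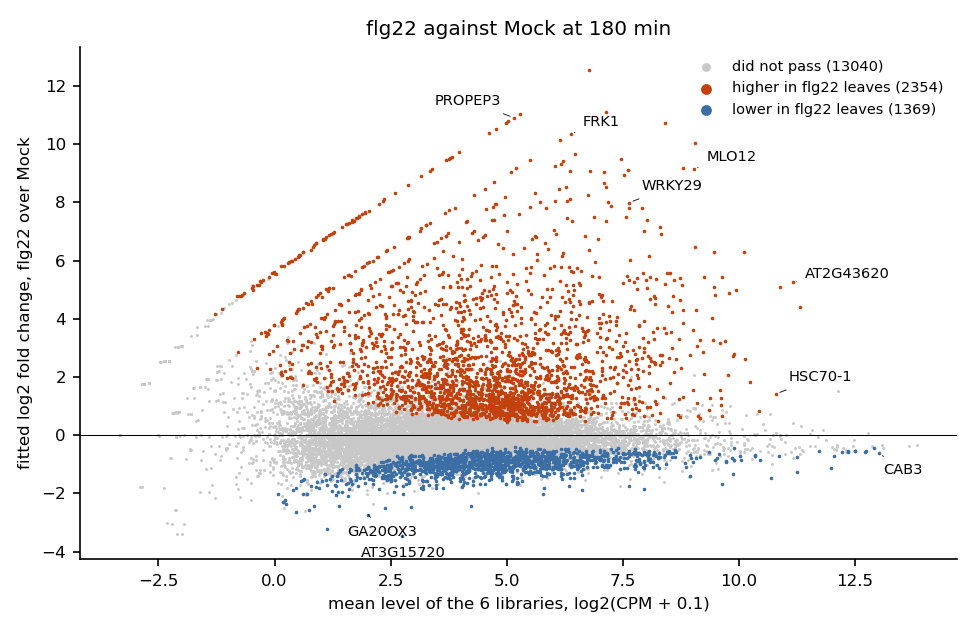
Fitted log2 fold change of flg22 over Mock leaves at 180 min (vertical axis) against the mean level in the 6 libraries as log2(CPM + 0.1) (horizontal axis) for the 16763 genes tested, with genes past an adjusted p of 0.05 coloured by direction. The 2354 rises reach far above 5 on the log2 scale, while the 1369 falls lie mostly between -0.64 and -1.43.

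The genes with the largest rises were at or near 0 in Mock leaves and abundant in flg22 leaves. AT2G36690, a gene of the 2-oxoglutarate-dependent oxygenase family, had 126, 219 and 312 CPM in flg22 leaves and 0, 0 and 0 CPM in Mock leaves. It was at least 777-fold higher in flg22 leaves (adjusted p = 8.48e-10). PROPEP3 (AT5G64905), the precursor of a danger peptide that amplifies the response, had 24, 54.2 and 136 CPM in flg22 leaves and 0, 0 and 0 CPM in Mock leaves, at least 242-fold higher (adjusted p = 4.97e-09). Its level was lowest in flg22 replicate 1 and highest in replicate 3, and every flg22 library lay above every Mock library. WAKL4 (AT1G16150), a kinase related to the wall-associated kinases, had 57.5, 79.6 and 57.6 CPM in flg22 leaves and 0, 0 and 0 CPM in Mock leaves and was at least 242-fold higher. FRK1 (AT2G19190), a receptor-like kinase widely used as a marker of this response, had 189, 174 and 135 CPM in flg22 leaves and 0.232, 0 and 0 CPM in Mock leaves, a ratio of 1875 with a counting interval of 336 to 74101 (adjusted p = 1.44e-11). The single Mock count of FRK1 fell in replicate 1, and its 3 flg22 libraries were close together.

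Most of the other large rises were in genes named only by family. AT5G48430, of the aspartyl protease family, had 206, 255 and 380.4 CPM in flg22 leaves and 0.232, 0 and 0 CPM in Mock leaves, a ratio of 3013 with a counting interval of 540.3 to 119028. AT2G44370, which encodes a cysteine- and histidine-rich C1 domain protein, had 406, 662 and 964 CPM in flg22 leaves and 0.232, 0.403 and 0.547 CPM in Mock leaves (10.73 ± 1.10). Another gene of that family, AT2G42060, was at least 170.0-fold higher. AT5G44380, of the berberine bridge enzyme family, was at least 202-fold higher. AT4G25845, annotated as an oxysterol-binding protein, was at least 272-fold higher, and the uncharacterized gene AT1G51920 at least 217-fold. In all of these the groups did not overlap. Bounds are against 3 counts over the 3 Mock libraries, and the bounds and the 95% intervals cover counting error only.

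The 8 largest gains in amount of RNA were in genes of several kinds. AT2G38870, a proteinase inhibitor of the PR-6 family, had 3236, 4762 and 6569.5 CPM in flg22 leaves and 48.4, 161 and 482 CPM in Mock leaves (4.40 ± 0.87 on the log2 scale, adjusted p = 0.000153). The chitinase family gene AT2G43620 had 3433, 5126 and 4774 CPM in flg22 leaves and 9.95, 141 and 195 CPM in Mock leaves (5.27 ± 1.00). The Mock level of these genes differed widely between experiments, lowest in replicate 1 and highest in replicate 3, yet every flg22 library was above every Mock library. GSTF6 (AT1G02930), a glutathione transferase of the phi class, had 3231, 3763 and 3955 CPM in flg22 leaves and 12.5, 96.6 and 218 CPM in Mock leaves (5.08 ± 1.02). Tags of the near-identical copy GSTF7 cannot be told apart from it with certainty. AT5G64120, a cell wall peroxidase involved in lignification, had 1563, 2357 and 2602 CPM in flg22 leaves and 8.8, 26.2 and 48.7 CPM in Mock leaves (6.31 ± 0.90). A cytosolic glutamine synthetase gene, GSR1 (AT5G37600), had 1315, 1459 and 2339 CPM in flg22 leaves and 21.8, 61.6 and 92.5 CPM in Mock leaves (4.87 ± 0.80). The uncharacterized AT1G65845 rose by 5.00 ± 0.87. The cytosolic chaperones HSC70-1 (AT5G02500) and AT3G09440, both of the HSP70 family, completed the 8 largest gains. HSC70-1 had 2087, 2712 and 2977 CPM in flg22 leaves and 733, 1022 and 1146 CPM in Mock leaves (1.42 ± 0.36), so that it was abundant in both groups.

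**Figure D2:**
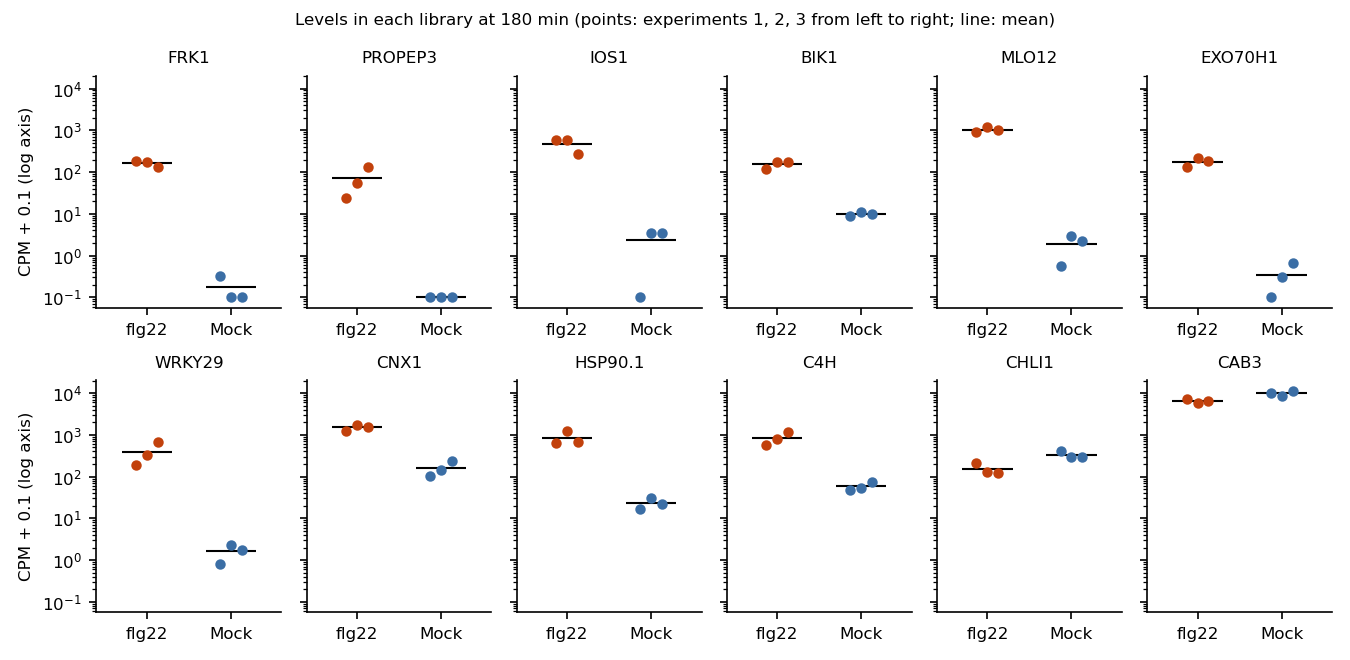
Level of named genes in each of the 6 libraries at 180 min on a log axis of CPM + 0.1, flg22 libraries left of Mock libraries, with 1 point per library and a line at the mean of each group. The rises separate the groups without overlap, most of all for genes with 0 or few Mock counts such as PROPEP3 and FRK1, and the falls are small beside them.

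The promoters of several of these genes are shown because a short sequence, the W-box, was more frequent in promoters of the genes that rose, and the comparison did not use it. Each line gives the 250 bases before the annotated gene start, 5′ to 3′ on the gene's strand, read from the TAIR10.1 assembly of RefSeq. Capitals mark W-boxes (TTGACC or TTGACT, on either strand, so GGTCAA and AGTCAA as well) in the first 4, the endoplasmic reticulum (ER) stress element (on either strand) in BIP3 and the heat shock element (GAANNTTC) in HSFA2. The first 4 hold 2, 4, 4 and 3 W-boxes, more than most promoters of genes that rose. BIP3 and HSFA2 hold 2 of their element each. FRK1's window is chr2:8329945-8330194 on the minus strand, and that of PROPEP3 is chr5:25939312-25939561 on the plus strand. CRK11's is chr4:12143859-12144108 and WRKY30's is chr5:8154711-8154960, both on the minus strand. BIP3's is chr1:2931851-2932100 on the minus strand. HSFA2's is chr2:11135374-11135623 on the plus strand.
FRK1: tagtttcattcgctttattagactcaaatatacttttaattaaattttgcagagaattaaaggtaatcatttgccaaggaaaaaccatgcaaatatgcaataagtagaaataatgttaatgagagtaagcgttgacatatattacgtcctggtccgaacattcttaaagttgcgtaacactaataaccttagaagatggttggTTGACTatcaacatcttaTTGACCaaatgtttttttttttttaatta
PROPEP3: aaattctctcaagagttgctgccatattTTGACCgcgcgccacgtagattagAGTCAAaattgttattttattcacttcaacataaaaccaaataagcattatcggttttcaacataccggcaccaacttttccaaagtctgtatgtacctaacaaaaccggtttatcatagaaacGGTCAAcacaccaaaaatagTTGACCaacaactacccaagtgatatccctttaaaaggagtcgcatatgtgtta
CRK11: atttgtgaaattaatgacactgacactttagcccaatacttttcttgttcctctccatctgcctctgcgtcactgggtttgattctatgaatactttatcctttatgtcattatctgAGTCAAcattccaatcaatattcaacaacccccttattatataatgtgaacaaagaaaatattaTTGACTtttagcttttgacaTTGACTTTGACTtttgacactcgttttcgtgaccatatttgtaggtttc
WRKY30: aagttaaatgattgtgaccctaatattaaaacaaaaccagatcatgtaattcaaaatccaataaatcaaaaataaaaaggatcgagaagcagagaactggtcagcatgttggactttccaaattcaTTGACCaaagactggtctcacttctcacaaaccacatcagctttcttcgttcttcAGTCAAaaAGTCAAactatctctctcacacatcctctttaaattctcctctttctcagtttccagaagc
BIP3: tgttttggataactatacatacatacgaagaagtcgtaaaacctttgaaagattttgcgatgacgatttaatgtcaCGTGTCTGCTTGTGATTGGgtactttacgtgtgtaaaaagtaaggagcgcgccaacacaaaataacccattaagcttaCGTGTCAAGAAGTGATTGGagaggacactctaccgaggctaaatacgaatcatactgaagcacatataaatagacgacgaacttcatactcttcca
HSFA2: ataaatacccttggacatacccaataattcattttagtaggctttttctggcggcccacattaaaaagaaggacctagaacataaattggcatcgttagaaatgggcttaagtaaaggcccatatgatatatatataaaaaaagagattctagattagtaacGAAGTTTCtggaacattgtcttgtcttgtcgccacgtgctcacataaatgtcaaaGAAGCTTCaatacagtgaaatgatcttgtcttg

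At least 1 W-box lay in 1080 of 2352 promoters of genes that rose (45.9%). It lay in 435 of 774 promoters of genes that rose at least 8-fold (56.2%) and in 273 of 1368 promoters of genes that fell (20%). Among all 16672 promoters of tested genes the number was 4740 (28.4%). Promoters with 2 or more W-boxes made up 16.2% of the genes that rose, 23.6% of those that rose at least 8-fold, 3.29% of those that fell and 6.38% of all. The share with the heat shock element was 12.1% among genes that rose and 9.5% among all, and with the rapid stress response element (CGCGTT) 4.51% and 2.87%. The evening element (AAATATCT) lay in 5.06% of promoters of genes that rose and in 5.22% of all, and the G-box (CACGTG) in 6.97% and 7.43%. The ER stress element was rare, in 1.62% of promoters of genes that rose and in 0.936% of all. The W-box shares also differed between the gene lists described below. Among them 15 of 18 pattern receptor promoters held one (83.3%), 20 of 32 of the cysteine-rich receptor-like kinases (62.5%), 17 of 49 of the WRKY genes (34.7%) and 5 of 45 of the antenna and photosystem genes (11.1%). A match describes the letters in this window and is not a measured binding site.

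**Figure D3:**
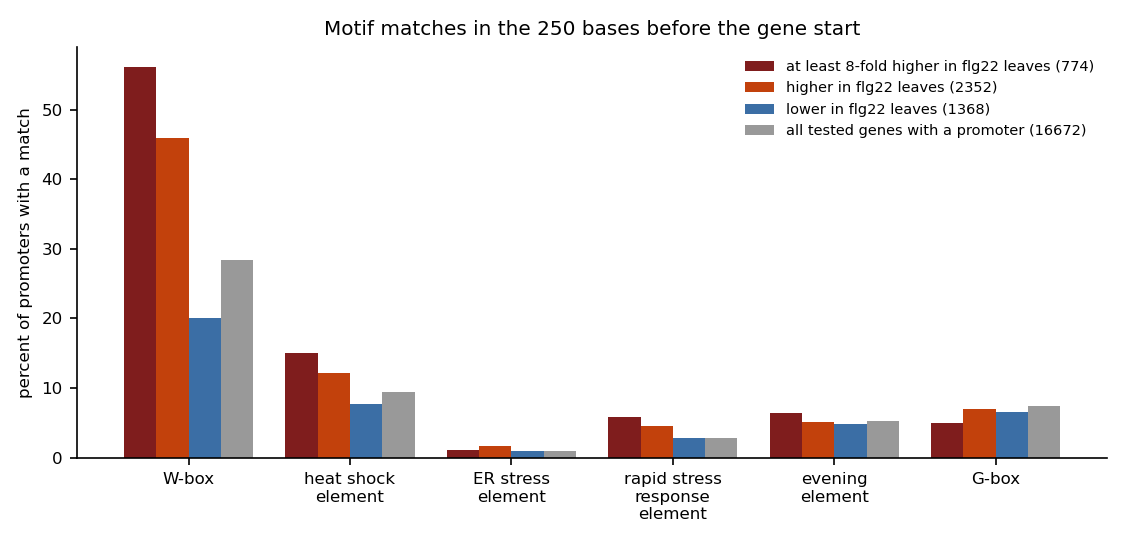
Share of promoters (250 bases before the gene start) holding at least 1 match of each of 6 motifs, for genes at least 8-fold higher, higher and lower in flg22 leaves and for all tested genes. The W-box bars step down from 56.2% and 45.9% to 28.4% for all genes and 20% for the genes that fell, and the evening element bars for genes that rose and for all tested genes are nearly level.

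Genes of the recognition machinery rose. Of 18 tested pattern receptors and co-receptors 13 rose and 1 fell, with a median log2 fold change of 2.50 against -0.06 over all genes tested. For every list and family the shares to set beside are those of all genes tested, 14% higher and 8.17% lower. IOS1 (AT1G51800), a receptor kinase that associates with pattern receptor complexes, had 582, 585 and 275 CPM in flg22 leaves and 0, 3.42 and 3.29 CPM in Mock leaves (7.81 ± 1.14 on the log2 scale, adjusted p = 9.36e-07). RLP23 (AT2G32680), the receptor of a peptide from microbial NLP toxins, had 29, 44 and 20.9 CPM in flg22 leaves and 0.695, 2.42 and 2.74 CPM in Mock leaves. SOBIR1 (AT2G31880), the adaptor kinase that such receptors use, had 60.8, 105 and 104 CPM in flg22 leaves and 2.55, 5.84 and 12.6 CPM in Mock leaves. They rose by 4.07 ± 0.74 and 3.81 ± 0.77. The flg22 receptor gene itself, FLS2 (AT5G46330), had 64.8, 69.5 and 40.5 CPM in flg22 leaves and 7.87, 13.3 and 7.12 CPM in Mock leaves, with no overlap (2.59 ± 0.87, adjusted p = 0.0258). That call was lost when single libraries were left out, written as minus that library, at an adjusted p of 0.102 (minus Mock replicate 1), 0.072 (minus flg22 replicate 2) and 0.0757 (minus Mock replicate 3). The member that fell was LYM3 (AT1G77630), a peptidoglycan-binding protein, with 3.53, 3.56 and 2.57 CPM in flg22 leaves and 9.72, 8.85 and 3.29 CPM in Mock leaves, with overlap between the groups (-1.23 ± 0.39). Its call was lost at an adjusted p of 0.119 (minus Mock replicate 1), 0.0786 (minus Mock replicate 2) and 0.0798 (minus flg22 replicate 3), and of 0.0591 when the fit held only the libraries of the groups compared.

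Downstream of the receptors, 5 of 8 tested cytoplasmic kinases and oxidative burst genes rose (median 1.98). BIK1 (AT2G39660), the kinase that links FLS2 to the oxidase RBOHD, had 120.3, 177 and 174 CPM in flg22 leaves and 8.8, 10.9 and 9.86 CPM in Mock leaves (3.99 ± 0.70, adjusted p = 2.41e-05). Its close relatives PBL1 (AT3G55450) and PBL2 (AT1G14370) rose by 3.16 ± 0.64 and 2.64 ± 0.55. In the MAP kinase cascade 10 of 16 tested members rose (median 1.28). MKK4 (AT1G51660), which activates MPK3 and MPK6, had 20.7, 35.1 and 33.8 CPM in flg22 leaves and 5.09, 4.23 and 8.21 CPM in Mock leaves (2.42 ± 0.64). The MPK4 substrate gene MKS1 (AT3G18690) had 12, 20.6 and 32.2 CPM in flg22 leaves and 2.78, 3.82 and 4.93 CPM in Mock leaves (2.53 ± 0.51). MPK4 (AT4G01370), the most abundant member that changed, had 71.3, 77.3 and 85.5 CPM in flg22 leaves and 37.7, 41.5 and 58 CPM in Mock leaves, a small rise of 0.78 ± 0.20 with no overlap between the groups. The calcium list had 10 rises and 2 falls among 21 tested members (median 2.09). The calcium pump gene ACA12 (AT3G63380) had 18.1, 13 and 25.1 CPM in flg22 leaves and 0, 0.201 and 1.09 CPM in Mock leaves, a ratio of 67.6 with a counting interval of 22.8 to 331. The sensors CML42 (AT4G20780) and CPK1 (AT5G04870) rose by 5.00 ± 0.74 and 3.17 ± 0.50. CML42 had 122, 172 and 216 CPM in flg22 leaves and 3.01, 5.84 and 7.67 CPM in Mock leaves, and CPK1 had 127, 170.2 and 118 CPM in flg22 leaves and 13.7, 20.3 and 11.5 CPM in Mock leaves. Both subunit genes of the calcium channel known to act in pattern signalling went the other way. CNGC4 (AT5G54250) had 24, 13.5 and 20.9 CPM in flg22 leaves and 55.1, 50.1 and 59.1 CPM in Mock leaves (-1.49 ± 0.53). CNGC2 (AT5G15410) had 31.1, 24.9 and 35.7 CPM in flg22 leaves and 60.6, 71.8 and 86 CPM in Mock leaves (-1.25 ± 0.43). No library of either gene overlapped the other group, but the calls were lost at an adjusted p of 0.0794 (minus Mock replicate 1), 0.0556 (minus Mock replicate 2), 0.158 (minus flg22 replicate 2), 0.07 (minus Mock replicate 3) and 0.0799 (minus flg22 replicate 3) for CNGC4, and of 0.0619 (minus flg22 replicate 1), 0.0588 (minus Mock replicate 2), 0.129 (minus flg22 replicate 2), 0.0858 (minus Mock replicate 3) and 0.054 (minus flg22 replicate 3) for CNGC2. In the calmodulin-like family 4 of 11 tested genes rose, among them CML12 (AT2G41100, also called TCH3), with 535, 650.2 and 506 CPM in flg22 leaves and 16, 26.8 and 31.8 CPM in Mock leaves (4.52 ± 1.12).

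Genes of secreted peptides moved both ways. Of 8 tested members 4 rose and 1 fell (median 1.70). PROPEP2 (AT5G64890), a relative of PROPEP3, had 1.41, 3.31 and 23.1 CPM in flg22 leaves and 0, 0 and 0 CPM in Mock leaves and was at least 29.9-fold higher, with most of the RNA in flg22 replicate 3. IDA (AT1G68765), known as the peptide that controls organ abscission, had 5.42, 21.4 and 33.5 CPM in flg22 leaves and 0, 0 and 0 CPM in Mock leaves and was at least 69.3-fold higher. RALF23 (AT3G16570), a peptide that dampens pattern signalling through the kinase FERONIA, had 34.4, 30.3 and 48.6 CPM in flg22 leaves and 62.3, 63.2 and 124 CPM in Mock leaves (-1.13 ± 0.38). The groups of RALF23 did not overlap, and its call was lost at an adjusted p of 0.0735 (minus flg22 replicate 1), 0.127 (minus flg22 replicate 2) and 0.202 (minus Mock replicate 3).

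Receptor-like kinases of the cysteine-rich and wall-associated families rose as well. Of 32 tested cysteine-rich receptor-like kinases (CRKs) 24 rose (median 3.16), and each of those calls held when any 1 of the 6 libraries was left out. CRK36 (AT4G11890) had 481, 668 and 439 CPM in flg22 leaves and 0.695, 8.65 and 14.8 CPM in Mock leaves (6.14 ± 0.86, adjusted p = 4.54e-07). CRK11 (AT4G23190), whose promoter is printed above and which was chosen for its 4 W-boxes after the values were seen, had 112, 179.9 and 118 CPM in flg22 leaves and 1.39, 3.22 and 7.12 CPM in Mock leaves (5.29 ± 0.83). CRK20 (AT4G23280) had 19.1, 30.5 and 38.3 CPM in flg22 leaves and 0, 0 and 0.547 CPM in Mock leaves, a ratio of 315 with a counting interval of 56.2 to 12486. CRK7 (AT4G23150) had 8.24, 9.67 and 13.2 CPM in flg22 leaves and 0.232, 0 and 0 CPM in Mock leaves, a ratio of 112 with a counting interval of 19.8 to 4473. Many CRK genes lie in tandem on chromosome 4 and are alike, so tags of neighbours may be shared. Of 10 tested wall-associated kinases and their relatives, which bind cell wall pectin where studied, 7 rose (median 3.61, or 2.39 with the 3 genes at 0 Mock counts set to their bounds). WAKL2 (AT1G16130) had 25.4, 30.02 and 15.8 CPM in flg22 leaves and 0.232, 0.201 and 0 CPM in Mock leaves. WAKL6 (AT1G16110) had 33, 38.2 and 15.4 CPM in flg22 leaves and 3.7, 6.04 and 4.93 CPM in Mock leaves (2.55 ± 0.67).

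Genes listed here as negative regulators of pattern signalling rose with those that carry it. Of 16 tested negative regulators 14 rose (median 2.77). Some of them, such as BIR1 and BIR2, are also in the pattern receptor list above. The call of PUB12 was lost without single libraries, at up to 0.141 (minus flg22 replicate 2). The call of CPK28 was lost likewise, at up to 0.134 (minus flg22 replicate 2), and at 0.0587 with limma-voom. That of NUDT7 was lost at 0.0546 (minus Mock replicate 1). MLO12 (AT2G39200), a homologue of the barley powdery mildew susceptibility gene, had 915, 1181 and 1027 CPM in flg22 leaves and 0.463, 2.82 and 2.19 CPM in Mock leaves (9.15 ± 1.22, adjusted p = 1.55e-07). MLO6 (AT1G61560) had 34.6, 49.1 and 68.8 CPM in flg22 leaves and 0, 0.604 and 0 CPM in Mock leaves, a ratio of 182 with a counting interval of 61.9 to 885. The U-box ubiquitin ligases PUB22 (AT3G52450), PUB23 (AT2G35930) and PUB24 (AT3G11840) act together to dampen the response. PUB22 had 218, 354 and 329 CPM in flg22 leaves and 0.463, 2.01 and 1.09 CPM in Mock leaves. PUB23 had 213, 329 and 291 CPM in flg22 leaves and 1.39, 1.61 and 2.19 CPM in Mock leaves, and PUB24 had 10.13, 12.5 and 23.8 CPM in flg22 leaves and 1.16, 0.805 and 1.09 CPM in Mock leaves. They rose by 7.88 ± 0.92, 7.37 ± 0.97 and 3.89 ± 0.63, with no overlap between the groups. In the whole U-box family 11 of 21 tested genes rose (median 1.56), and 7 (minus Mock replicate 1) did.

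Secretion and callose genes rose almost throughout, 10 of 11 tested members (median 2.95). EXO70H1 (AT3G55150), a subunit of the exocyst that tethers secretory vesicles, had 131, 218 and 183 CPM in flg22 leaves and 0, 0.201 and 0.547 CPM in Mock leaves, a ratio of 976 with a counting interval of 270.0 to 8068. EXO70H2 (AT2G39380) rose by 8.02 ± 0.74. The plasma membrane syntaxin SYP122 (AT3G52400) had 250.1, 354 and 697 CPM in flg22 leaves and 3.7, 11.3 and 17 CPM in Mock leaves (5.40 ± 1.12, adjusted p = 0.000286). PEN3 (AT1G59870), a transporter that exports defence compounds, had 1090.5, 1165 and 913 CPM in flg22 leaves and 109, 170.0 and 153 CPM in Mock leaves (2.87 ± 0.76). The chaperones that fold secreted proteins also rose: 13 of 17 tested genes of the ER list (median 2.64), and each of those calls held when any 1 of the 6 libraries was left out. The 17 include AT4G36290 (CRT1, -0.24 ± 0.39, not called), an ATPase gene that shares its symbol with calreticulin 1. CNX1 (AT5G61790), the membrane lectin chaperone calnexin, had 1206, 1743 and 1554 CPM in flg22 leaves and 102, 145 and 238 CPM in Mock leaves (3.22 ± 0.42, adjusted p = 1.28e-07). BIP2 (AT5G42020), an ER HSP70, had 1108, 1211 and 776 CPM in flg22 leaves and 39.6, 52.5 and 64.6 CPM in Mock leaves (4.31 ± 0.56), though tags may be shared with its near-identical copy BIP1. BIP3 (AT1G09080), the stress-induced form whose promoter is printed above, had 57, 41.7 and 25.4 CPM in flg22 leaves and 0.695, 0.201 and 0 CPM in Mock leaves (6.72 ± 0.92). ERDJ3A (AT3G08970), an ER co-chaperone, had 64, 82.2 and 66.6 CPM in flg22 leaves and 1.85, 3.82 and 3.83 CPM in Mock leaves (4.51 ± 0.48). An ER stress element lay in the promoters of 4 of the 17 genes of the ER list (23.5%), among them BIP3 with 2. Of 16 tested heat shock genes 13 rose (median 3.02). HSFA2 (AT2G26150), a heat shock transcription factor, had 30.4, 44.8 and 49.2 CPM in flg22 leaves and 0.463, 0.201 and 3.83 CPM in Mock leaves (5.33 ± 1.05). The chaperone HSP90.1 (AT5G52640) had 643, 1231 and 664 CPM in flg22 leaves and 16.7, 31.4 and 21.9 CPM in Mock leaves (5.17 ± 0.82, adjusted p = 4.52e-06). The heat shock factor HSFB1 (AT4G36990) had 132, 198 and 403 CPM in flg22 leaves and 4.86, 7.85 and 13.7 CPM in Mock leaves (4.86 ± 0.64). The plants were grown at 22 °C per the labels, and flg22 and Mock leaves of an experiment had the same label for growth. Any part of temperature or handling in these rises was not tested.

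Enzymes of defence metabolism rose in part of each pathway. In shikimate and tryptophan synthesis, which supplies indolic compounds, 5 of 11 tested genes rose (median 0.49). EMB1144 (AT1G48850), chorismate synthase, had 122, 155 and 260.5 CPM in flg22 leaves and 38, 37.4 and 40.5 CPM in Mock leaves (2.21 ± 0.27, adjusted p = 2.41e-08). ASB1 (AT1G25220), a subunit of anthranilate synthase at the entry to tryptophan synthesis, had 35.8, 29.8 and 67.5 CPM in flg22 leaves and 6.02, 6.64 and 8.76 CPM in Mock leaves (2.66 ± 0.41). Tryptophan synthase gene TSB1 (AT5G54810) rose by 1.28 ± 0.33 to 172, 168 and 244 CPM in flg22 leaves, against 72.7, 75.1 and 93.6 CPM in Mock leaves. In the indole glucosinolate and camalexin list 9 of 20 tested genes rose (median 1.50). IGMT2 (AT1G21120), a methyltransferase of indole glucosinolates, had 247, 288 and 335 CPM in flg22 leaves and 0.463, 1.41 and 1.64 CPM in Mock leaves (8.00 ± 0.96), a value its close copies may share. CYP81F2 (AT5G57220), the hydroxylase acting before it, had 65.9, 91.6 and 112 CPM in flg22 leaves and 0.926, 2.21 and 1.64 CPM in Mock leaves (5.77 ± 0.81). PEN2 (AT2G44490), the enzyme that hydrolyses these glucosinolates in defence, had 710.5, 930.3 and 628 CPM in flg22 leaves and 87.5, 90.3 and 53.6 CPM in Mock leaves (3.29 ± 0.50). CYP71A12 (AT2G30750), which leads to camalexin and related indoles, had 5.42, 3.05 and 26.4 CPM in flg22 leaves and 0.232, 0 and 0 CPM in Mock leaves, a ratio of 115 with a counting interval of 20.3 to 4589.5, and flg22 replicate 3 held most of its RNA. The camalexin genes CYP71A13 (AT2G30770, -0.31 ± 1.39, adjusted p = 0.906) and PAD3 (AT3G26830, 3.76 ± 1.47, adjusted p = 0.0636) were not called. PAD3 had 0.471, 0.254 and 4.82 CPM in flg22 leaves and 0, 0.201 and 0 CPM in Mock leaves. In the phenylpropanoid and lignin list 9 of 16 tested genes rose (median 1.78). C4H (AT2G30490), cinnamate 4-hydroxylase at the start of the pathway, had 559, 807 and 1140.4 CPM in flg22 leaves and 48.8, 53.1 and 73.9 CPM in Mock leaves (3.84 ± 0.50, adjusted p = 1.27e-07). 4CL5 (AT3G21230), a 4-coumarate CoA ligase, had 46.6, 64.1 and 112 CPM in flg22 leaves and 6.02, 3.62 and 3.83 CPM in Mock leaves (4.01 ± 0.56). MYB15 (AT3G23250), a transcription factor of defence lignin, had 117, 169 and 206 CPM in flg22 leaves and 0.232, 0.403 and 0 CPM in Mock leaves, a ratio of 592 with a counting interval of 202 to 2873.

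The large enzyme families were divided. Among cytochrome P450s 24 rose and 19 fell of 103 tested (median -0.32), and the called members numbered 27 (minus Mock replicate 1), 27 (minus Mock replicate 2), 24 (minus flg22 replicate 2) and 27 (minus flg22 replicate 3). Those that rose were larger changes. CYP71B23 (AT3G26210), a P450 with no role assigned here, had 85.5, 158 and 82 CPM in flg22 leaves and 0.926, 2.01 and 5.47 CPM in Mock leaves (5.51 ± 0.72). The falls of CYP706A6 (AT4G12320), CYP72A11 (AT3G14650) and CYP51G1 (AT1G11680), a sterol demethylase, were -1.30 ± 0.34, -1.18 ± 0.29 and -0.79 ± 0.20. UDP-glycosyltransferases had 7 rises and 7 falls among 40 tested (17.5% each, median -0.21), and the called members numbered 9 (minus flg22 replicate 2). UGT73D1 (AT3G53150) was at least 22-fold higher, with 3.06, 7.38 and 8.04 CPM in flg22 leaves and 0 counts in Mock leaves. UGT74D1 (AT2G31750), which conjugates auxins, had 29.2, 22.4 and 23.1 CPM in flg22 leaves and 79.6, 88.5 and 92.5 CPM in Mock leaves (-1.80 ± 0.33). Among tau and phi glutathione transferases 7 of 28 rose (median 0.36), against 14% of all genes tested. GSTF7 (AT1G02920) had 1063, 1285 and 1801 CPM in flg22 leaves and 3.7, 12.7 and 39.4 CPM in Mock leaves (6.29 ± 1.04). GSTF8 (AT2G47730) had 1201, 1863 and 1898 CPM in flg22 leaves and 129, 192 and 401 CPM in Mock leaves (2.78 ± 0.53).

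In the WRKY family of transcription factors, 27 of 49 tested genes rose (median 2.85). WRKY29 (AT4G23550), long used as an early marker of flg22 signalling, had 194, 329.9 and 663 CPM in flg22 leaves and 0.695, 2.21 and 1.64 CPM in Mock leaves (7.99 ± 0.82, adjusted p = 8.04e-10). WRKY30 (AT5G24110), whose promoter is printed above, had 113, 224 and 131 CPM in flg22 leaves and 0.463, 0.403 and 1.09 CPM in Mock leaves (8.05 ± 0.97). WRKY72 (AT5G15130) had 5.89, 11.7 and 26.1 CPM in flg22 leaves and 0, 0 and 0 CPM in Mock leaves, at least 49.9-fold higher. In the NAC family 10 of 40 tested genes rose (median 0.66), against 14% of all genes tested. The number was 4 (minus Mock replicate 1) and 6 (minus flg22 replicate 3). NAC062 (AT3G49530), a membrane-tethered factor, had 50.4, 52.1 and 55.6 CPM in flg22 leaves and 8.56, 10.5 and 9.31 CPM in Mock leaves (2.47 ± 0.54). MYB factors showed 11 rises and 2 falls among 44 tested (median 0.38), against 14% and 8.17% of all genes tested. MYB87 (AT4G37780) had 18.6, 48.1 and 49.9 CPM in flg22 leaves and 0, 0.201 and 0 CPM in Mock leaves, a ratio of 417 with a counting interval of 74.4 to 16492. MYB48 (AT3G46130) had 3.77, 3.05 and 3.86 CPM in flg22 leaves and 11.8, 10.3 and 11.5 CPM in Mock leaves (-1.64 ± 0.47). In the ERF family 5 rose and 1 fell of 19 tested (median 1.19), and the called members numbered 2 (minus Mock replicate 1), 3 (minus Mock replicate 2) and 3 (minus flg22 replicate 3). They numbered 10 with DESeq2 and with only the groups compared. ERF5 (AT5G47230), a factor that responds to ethylene and to chitin, had 32.5, 48.6 and 41.2 CPM in flg22 leaves and 1.62, 1.81 and 2.74 CPM in Mock leaves (4.37 ± 0.95).

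The hormone pathways were examined in plants with a mutation in the synthesis or signalling of jasmonate, ethylene and salicylic acid. The transcripts of the mutated genes were not called. AOS had 12.7, 12.7 and 26.1 CPM in flg22 leaves and 24.1, 18.5 and 31.2 CPM in Mock leaves (-0.51 ± 0.49, adjusted p = 0.487). EIN2 had 16, 14.8 and 8.68 CPM in flg22 leaves and 13.2, 15.3 and 9.86 CPM in Mock leaves (0.02 ± 0.30, adjusted p = 0.971). PAD4 had 8.01, 6.11 and 15.1 CPM in flg22 leaves and 1.62, 4.43 and 2.19 CPM in Mock leaves (1.73 ± 0.72, adjusted p = 0.0791). ICS1 was too low to be tested, at 0.942, 1.53 and 1.93 CPM in flg22 leaves and 1.16, 1.21 and 1.64 CPM in Mock leaves. Since 3′ tags may lie outside the mutated stretch, these levels do not check the mutations. In the salicylic acid and EDS1 list 5 of 15 tested genes rose (median 1.36). CBP60G (AT5G26920), a transcription factor that activates salicylic acid synthesis in wild type, had 148, 198 and 265 CPM in flg22 leaves and 1.39, 2.42 and 1.09 CPM in Mock leaves (6.84 ± 1.09, adjusted p = 4.88e-06). EDS1 (AT3G48090), the partner of PAD4, had 36.5, 41 and 20.6 CPM in flg22 leaves and 7.64, 5.03 and 4.93 CPM in Mock leaves (2.45 ± 0.57). The salicylic acid marker PR1 had 1 count in 1 of the 6 libraries, an flg22 library. In the jasmonate list 5 of 18 tested genes rose (median 0.98). The repressor gene JAZ1 (AT1G19180) had 26.6, 27.5 and 35.7 CPM in flg22 leaves and 0.926, 0.403 and 1.64 CPM in Mock leaves (5.10 ± 0.93). The lipoxygenase LOX4 (AT1G72520) had 27.6, 27 and 32.5 CPM in flg22 leaves and 1.62, 0.805 and 2.74 CPM in Mock leaves (4.23 ± 0.93). In the ethylene list 5 of 15 tested genes rose (median 1.60). With the experiments as blocks, without the 4 libraries or with DESeq2 8 rose, and with only the groups compared 9. The ethylene precursor is made by ACC synthases, of which ACS7 (AT4G26200) had 88.8, 102 and 252 CPM in flg22 leaves and 0.232, 0.201 and 0 CPM in Mock leaves, a ratio of 768 with a counting interval of 212 to 6348. ACS2 (AT1G01480) had 6.12, 15.3 and 12.5 CPM in flg22 leaves and 0.232, 0 and 0.547 CPM in Mock leaves. ACO4 (AT1G05010), an oxidase that completes the synthesis, had 216, 354 and 353 CPM in flg22 leaves and 70.1, 99.2 and 135 CPM in Mock leaves (1.60 ± 0.39).

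Abscisic acid genes showed 5 rises and 1 fall among 22 tested (median -0.09), against 14% and 8.17% of all genes tested. The called members numbered 3 (minus Mock replicate 1). PYL6 (AT2G40330), an abscisic acid receptor, had 11.1, 6.36 and 30.6 CPM in flg22 leaves and 0.232, 0.201 and 1.09 CPM in Mock leaves (5.28 ± 1.31, adjusted p = 0.00246). ABA2 (AT1G52340), a synthesis enzyme, had 8.48, 7.12 and 9.97 CPM in flg22 leaves and 16.7, 14.7 and 19.7 CPM in Mock leaves (-0.99 ± 0.27). The PYL4 receptor gene (AT2G38310) had 159, 125 and 193 CPM in flg22 leaves and 17.36, 23.5 and 31.2 CPM in Mock leaves (2.74 ± 0.77), a call lost at an adjusted p of 0.0517 (minus Mock replicate 1). Auxin, gibberellin and brassinosteroid genes had 2 rises (6.67%, against 14% of all genes tested) and 3 falls (10% against 8.17%) among 30 tested, with a median of -0.48. The called members numbered 3 (minus flg22 replicate 2), and 2 higher and 6 lower without the 4 libraries, with only the groups compared or with limma-voom. GA20OX3 (AT5G07200), an enzyme of gibberellin synthesis, had 0.235, 0.763 and 2.25 CPM in flg22 leaves and 4.63, 9.86 and 6.02 CPM in Mock leaves (-2.74 ± 0.64), the second largest fall of all genes that met the naming rule. GA2OX6 (AT1G02400), which inactivates gibberellin, had 78.9, 119 and 116 CPM in flg22 leaves and 5.32, 15.7 and 21.9 CPM in Mock leaves (2.91 ± 0.89). Its call was lost at an adjusted p of 0.0929 (minus Mock replicate 1). CPD (AT5G05690), an enzyme of brassinosteroid synthesis, had 144, 99.97 and 170.1 CPM in flg22 leaves and 230.1, 303 and 337 CPM in Mock leaves (-1.07 ± 0.33), a call lost at an adjusted p of 0.108 (minus flg22 replicate 2) and 0.0564 (minus Mock replicate 3). Of 44 tested SAUR genes, small auxin-responsive genes, 7 rose (15.9%, against 14% of all genes tested) and 1 fell (2.27% against 8.17%), with a median of -0.43. The called members numbered 5 (minus Mock replicate 1) and 4 (minus Mock replicate 2), and 5 higher and 9 lower with only the groups compared. SAUR gene AT2G36210 had 35.3, 63.6 and 59.5 CPM in flg22 leaves and 0.232, 0 and 0 CPM in Mock leaves, a ratio of 576 with a counting interval of 103 to 22794.

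Falls were smaller than rises, and the 10 largest included 2 pectin lyase-like genes, 2 lipase genes and a gene of xyloglucan remodelling. AT3G15720, of the pectin lyase-like family, had 0.942, 0.763 and 1.61 CPM in flg22 leaves and 12.7, 11.7 and 12 CPM in Mock leaves (-3.46 ± 0.81, adjusted p = 0.00128). AT3G53190 of the same family had 3.3, 1.78 and 1.61 CPM in flg22 leaves and 6.71, 7.24 and 14.2 CPM in Mock leaves (-1.97 ± 0.52). E13L3 (AT5G08000), a callose-binding protein of plasmodesmata, had 6.36, 6.11 and 5.15 CPM in flg22 leaves and 24.5, 39 and 31.2 CPM in Mock leaves (-2.42 ± 0.56). CORI3 (AT4G23600), a cystine lyase, had 21.9, 14.5 and 29.3 CPM in flg22 leaves and 69.2, 90.6 and 105 CPM in Mock leaves (-2.01 ± 0.54). The lipase family gene AT3G05180 fell by 1.86 ± 0.41 on the log2 scale. Other calls among the 10 largest falls were lost when 1 library was left out. XTH31 (AT3G44990), which remodels xyloglucan, had 54.6, 31.5 and 39.6 CPM in flg22 leaves and 199, 131 and 139 CPM in Mock leaves (-1.90 ± 0.67), a call lost at an adjusted p of 0.115 (minus Mock replicate 1), 0.139 (minus flg22 replicate 2) and 0.103 (minus flg22 replicate 3). TINY2 (AT5G11590), a transcription factor, fell by 2.02 ± 0.65 on the log2 scale, a call lost at an adjusted p of 0.0516 (minus flg22 replicate 2), 0.092 (minus Mock replicate 3) and 0.0956 (minus flg22 replicate 3). MPL1 (AT5G14180), an aphid-induced lipase, fell by 2.46 ± 0.72, a call lost at 0.0605 (minus flg22 replicate 1) and 0.104 (minus Mock replicate 3). AT4G25433, a LysM domain gene, fell by 2.49 ± 0.70, a call lost at 0.0561 (minus flg22 replicate 2). In the xyloglucan endotransglucosylase family 2 rose and 1 fell of 21 tested (9.52% and 4.76%, against 14% and 8.17% of all genes tested), with a median of -0.48. The called members numbered 5 with the experiments as blocks, 5 without the 4 libraries, and 0 (minus Mock replicate 1), 1 (minus flg22 replicate 2) and 1 (minus flg22 replicate 3). Among expansins 2 of 14 fell (median -0.25), against 8.17% of all genes tested. The called members numbered 0 (minus flg22 replicate 1), 0 (minus Mock replicate 2), 1 (minus flg22 replicate 2), 0 (minus Mock replicate 3) and 0 (minus flg22 replicate 3), 0 without the filter, and 1 with RLE size factors in place of TMM, with DESeq2 or with the filter of 10 CPM.

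By amount of RNA lost, the 8 leading genes were of photosynthesis except AT2G45180, which had 2144, 2179 and 3257 CPM in flg22 leaves and 4459, 4896 and 7235 CPM in Mock leaves (-1.13 ± 0.32). CAB3 (AT1G29910), an antenna protein of photosystem II, had 7181, 5892 and 6481 CPM in flg22 leaves and 9949, 8661 and 11489 CPM in Mock leaves (-0.62 ± 0.23, adjusted p = 0.0447), though its near-identical copies may share tags. PSAO (AT1G08380), a subunit of photosystem I, had 6094, 4601 and 5441 CPM in flg22 leaves and 7949, 6859 and 9384 CPM in Mock leaves (-0.58 ± 0.20). The plastocyanin gene PETE2 (AT1G20340) had 5323, 4428 and 4229 CPM in flg22 leaves and 7115, 5681 and 7802 CPM in Mock leaves (-0.56 ± 0.19). The groups did not overlap in any of the 3. Single libraries decided these calls, at an adjusted p of 0.0948 (minus Mock replicate 1), 0.162 (minus flg22 replicate 2), 0.15 (minus Mock replicate 3) and 0.106 (minus flg22 replicate 3) for CAB3, 0.0685 (minus Mock replicate 1), 0.158 (minus flg22 replicate 2), 0.137 (minus Mock replicate 3) and 0.073 (minus flg22 replicate 3) for PSAO, and 0.0873 (minus Mock replicate 1), 0.104 (minus flg22 replicate 2), 0.119 (minus Mock replicate 3) and 0.117 (minus flg22 replicate 3) for PETE2. They were also lost without the filter (0.0762 for CAB3, 0.0625 for PSAO and 0.0632 for PETE2) and with only the groups compared (0.153, 0.19 and 0.206), and that of CAB3 with RLE size factors (0.0585). Of 45 tested antenna and nuclear photosystem genes 14 fell (median -0.51, all members between -0.93 and -0.08), and 22 fell with the experiments as blocks. The called members numbered 3 (minus Mock replicate 1), 23 (minus flg22 replicate 1), 0 (minus flg22 replicate 2), 1 (minus Mock replicate 3) and 2 (minus flg22 replicate 3). They numbered 8 with RLE size factors, 30 with library sizes alone, 4 without the filter and 1 with only the groups compared. In the Calvin cycle and photorespiration 9 of 21 tested genes fell (median -0.67). The called members numbered 1 (minus Mock replicate 1), 1 (minus flg22 replicate 2) and 1 (minus flg22 replicate 3), and 2 with only the groups compared. PRK (AT1G32060), phosphoribulokinase, had 729, 551 and 502 CPM in flg22 leaves and 1367, 900.5 and 1037 CPM in Mock leaves (-0.89 ± 0.27), a call lost at an adjusted p of 0.103 (minus Mock replicate 1), 0.063 (minus flg22 replicate 2) and 0.0763 (minus flg22 replicate 3). In chlorophyll synthesis 7 genes fell and 1 rose of 16 tested (median -0.76), with 4 (minus Mock replicate 1), 3 (minus flg22 replicate 2), 5 (minus Mock replicate 3) and 3 (minus flg22 replicate 3) called. CHLI1 (AT4G18480), a subunit of magnesium chelatase, had 216, 126 and 119 CPM in flg22 leaves and 406, 297 and 294 CPM in Mock leaves (-1.11 ± 0.29, adjusted p = 0.00381) and kept its call without any 1 library. GSA1 (AT5G63570), an enzyme of the early pathway, rose to 121, 133 and 136 CPM in flg22 leaves, against 68.1, 76.1 and 79.4 CPM in Mock leaves. The mesophyll marker sum given above was also lower in flg22 leaves of each experiment, with the activase gene RCA (AT2G39730) lower among its 5 markers (-0.73 ± 0.27, adjusted p = 0.0447), though its groups overlapped. That call was lost at an adjusted p of 0.225 (minus Mock replicate 1), 0.129 (minus flg22 replicate 2), 0.0725 (minus Mock replicate 3) and 0.222 (minus flg22 replicate 3), and likewise with RLE size factors (0.0575), without the filter (0.0691) and with only the groups compared (0.152). The share of counts from chloroplast genes was 4.43%, 3.56% and 6.39% in flg22 leaves and 4.09%, 3.34% and 3.48% in Mock leaves. In pooled leaf RNA, fewer cells of a type and less RNA per cell cannot be told apart, and the part of either in these results was not tested.

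Some genes of sugar transport rose and others were not called. STP1, STP4 and STP13 rose, while SUC2 (0.19 ± 0.20), SWEET11 (-0.01 ± 0.23) and SWEET12 (0.57 ± 0.67) were not called. The call of STP1 (2.17 ± 0.67) was lost at an adjusted p of 0.0863 (minus Mock replicate 1) and 0.065 (minus flg22 replicate 3). That of STP4 (2.26 ± 0.61) was lost at 0.0502 (minus Mock replicate 1). Of 17 tested starch and sugar genes 4 rose and 1 fell (median -0.07), with 2 (minus Mock replicate 1) and 3 (minus flg22 replicate 3) called. The 17 include AT4G20270 (BAM3, -0.44 ± 0.53, not called), a receptor kinase gene that shares its symbol with a beta-amylase. STP13 (AT5G26340), a hexose transporter of the plasma membrane, had 311, 432 and 538 CPM in flg22 leaves and 21.8, 35.4 and 38.3 CPM in Mock leaves (3.75 ± 0.74, adjusted p = 0.00014). The cell wall invertase cwINV1 (AT3G13790) had 411, 522 and 368 CPM in flg22 leaves and 31, 80.5 and 66.2 CPM in Mock leaves (2.87 ± 0.65). The member that fell was the starch synthase SS1 (AT5G24300), with 68, 67.7 and 52.7 CPM in flg22 leaves and 113, 92.2 and 98.5 CPM in Mock leaves (-0.69 ± 0.21). Its call was lost at an adjusted p of 0.0824 (minus Mock replicate 1) and 0.0959 (minus flg22 replicate 3), and of 0.0505 with only the groups compared.

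In the mitochondrial stress list 4 of 10 tested genes rose (median 0.68), against 14% of all genes tested. The outer membrane protein gene OM66 (AT3G50930) had 32.3, 35.6 and 22.5 CPM in flg22 leaves and 0.695, 1.81 and 1.64 CPM in Mock leaves (4.44 ± 1.08). The alternative oxidase AOX1A (AT3G22370) had 75.6, 68.2 and 82.3 CPM in flg22 leaves and 28, 28.2 and 34.5 CPM in Mock leaves (1.32 ± 0.32). Of 14 tested metacaspases and cell death suppressors 7 rose (median 0.71), and 4 (minus Mock replicate 1) did. MC2 (AT4G25110), a metacaspase that limits cell death, had 68, 72.8 and 146 CPM in flg22 leaves and 0.232, 0.201 and 3.29 CPM in Mock leaves (6.86 ± 1.06), and MC8 (AT1G16420) was at least 37.8-fold higher. BI1 (AT5G47120), an ER suppressor of cell death, had 256, 354 and 478 CPM in flg22 leaves and 69, 83.1 and 106 CPM in Mock leaves (2.08 ± 0.34). For the 26S proteasome 2 of 38 tested subunit genes rose (median 0.08), against 14% of all genes tested. The count was 1 with library sizes alone or without the filter, 4 with DESeq2 and 5 without the 4 libraries. RPN6 (AT1G29150) had 121, 165 and 155 CPM in flg22 leaves and 75.5, 93.4 and 83.2 CPM in Mock leaves (0.81 ± 0.19). Of 18 clock genes 0 were called by edgeR's test, by DESeq2 or by limma-voom, and 0 had an unadjusted p under 0.05 (median -0.18). Without the 4 libraries that clock genes set apart 1 was called, TOC1 (AT5G61380), with an adjusted p of 0.0187. It had 13.42, 10.68 and 18.01 CPM in flg22 leaves and 4.167, 10.67 and 6.57 CPM in Mock leaves, so that the groups all but met. With all libraries its adjusted p by edgeR was 0.353.

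**Figure D4:**
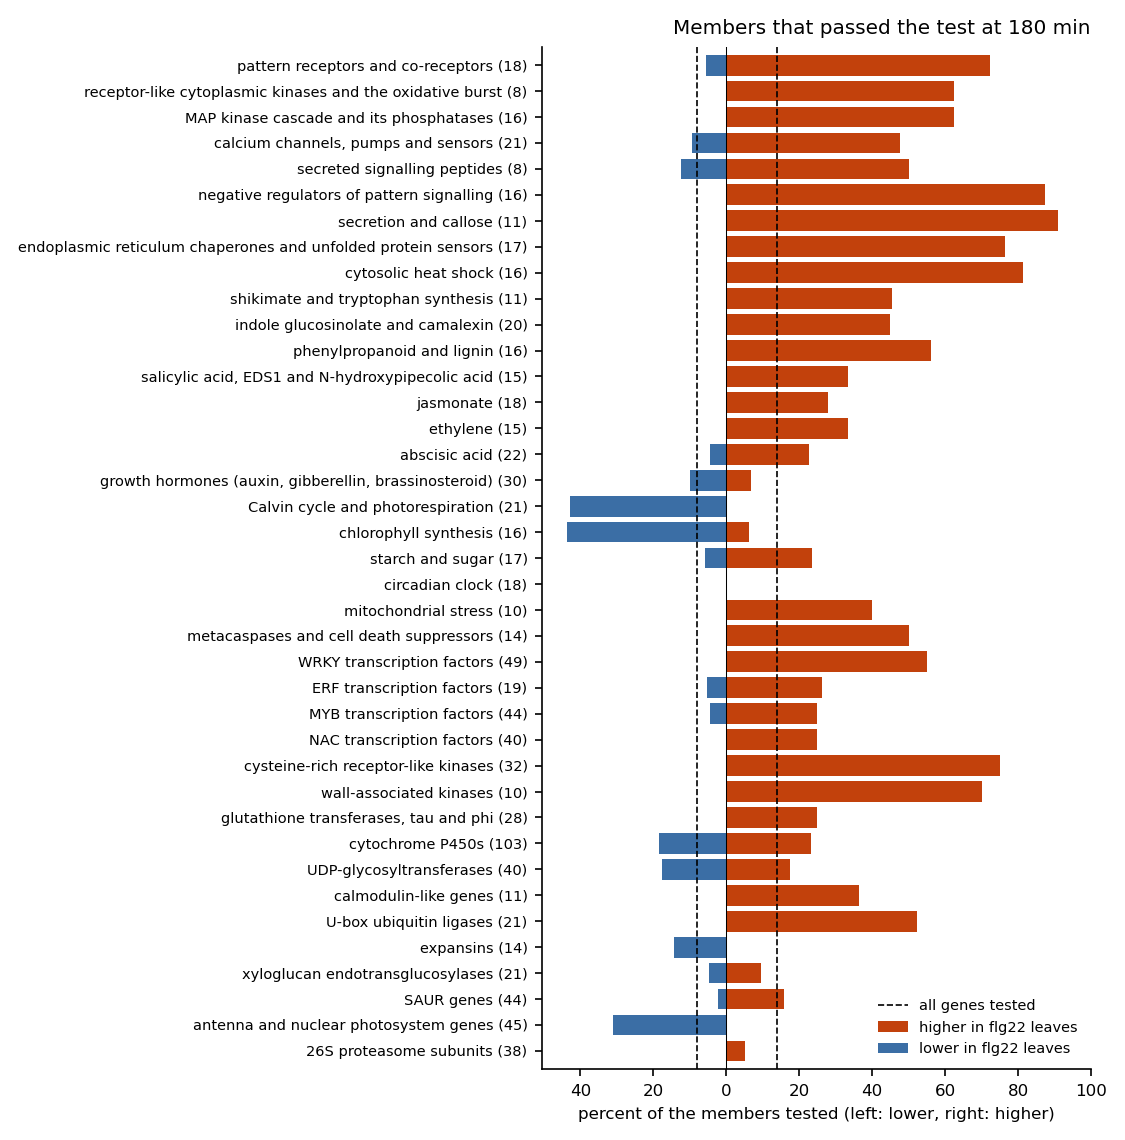
Percent of the tested members of each list or family (number tested in brackets) that were higher (bars to the right) or lower (bars to the left) in flg22 than in Mock leaves at 180 min at an adjusted p under 0.05. Dashed lines mark all genes tested, 14% higher and 8.17% lower. The bars for secretion, negative regulators, heat shock, ER chaperones and CRKs reach farthest right, and those of chlorophyll synthesis, the Calvin cycle and the photosystems farthest left.

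The response at 180 min was set beside that at the other times. The comparisons of flg22 with Mock there called 1081 rises (6.45% of genes tested) and 569 falls (3.39%) at 60 min. They called 1246 rises (7.43%) and 470 falls (2.8%) at 120 min, and 3221 rises (19.2%) and 3502 falls (20.9%) at 300 min. Of the 2354 genes that rose at 180 min, 865 also rose at 60 min (36.7% of the 2354 and 80.02% of the rises at 60 min). The number shared was 1112 with 120 min (47.2% and 89.2%) and 1947 with 300 min (82.7% and 60.4%), and 251 passed the test at no other time. Of the 1369 that fell, 187 also fell at 60 min (13.7% of the 1369 and 32.9% of the falls there). The falls shared were 295 with 120 min (21.5% and 62.8%) and 1133 with 300 min (82.8% and 32.4%), and 198 passed at no other time. The comparison at 60 min rests in part on the library labelled Mock 60 min of experiment 2, which by clock genes was nearest to 0 min. Without the 4 libraries set apart it called 635 rises (3.79%) and 195 falls (1.16%), of which 559 and 75 were shared with the 2948 rises and 1899 falls then called at 180 min. The 120 min comparison then called 1799 rises (10.7%) and 980 falls (5.85%). The 300 min comparison then called 3456 rises (20.6%) and 3300 falls (19.7%). At 180 min and no other time 424 rises and 350 falls then passed. Passing at one time and not at another is no test of a difference, so the difference itself was tested. The flg22 effect at 180 min differed from that at 120 min in 0 genes by edgeR's test (0% of genes tested), with 667 at an unadjusted p under 0.05, in 15 by DESeq2 and in 0 by limma-voom. Of the 17 genes of the ER list 10 had an unadjusted p under 0.05 in that test and DESeq2 called 2. Their median log2 fold change over Mock was 0.18, 1.18, 2.64 and 2.82 at 60, 120, 180 and 300 min, or 0.01, 1.19, 2.66 and 2.59 without the 4 libraries.

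Between 180 and 300 min the effect differed in 10 genes (0.0597% of genes tested), 2 with a higher effect at 180 min (0.0119%) and 8 with a lower one (0.0477%), and 1483 genes had an unadjusted p under 0.05. HA2 (AT4G30190), a proton pump of the plasma membrane, had 803, 946 and 1201 CPM in flg22 leaves and 102, 124 and 124 CPM in Mock leaves at 180 min (3.07 ± 0.31). At 300 min it had 1503, 2325 and 2974 CPM in flg22 leaves and 59.8, 39.6 and 76.8 CPM in Mock leaves (5.27 ± 0.34), a difference of -2.20 ± 0.41 (adjusted p = 0.0155). The protein kinase gene AT3G22750 had 34.4, 58.2 and 64 CPM in flg22 leaves and 11.8, 14.1 and 18.1 CPM in Mock leaves at 180 min. It had 53, 75 and 103 CPM in flg22 leaves against 3.35, 3.84 and 3.07 CPM in Mock leaves at 300 min, a difference of -2.61 ± 0.48. SAM1 (AT1G02500), an S-adenosylmethionine synthetase, and CEF (AT3G44340), a homologue of the Sec24 coat protein of secretory vesicles, rose at both times. Their rises were 0.68 ± 0.16 and 0.69 ± 0.23 at 180 min and 1.81 ± 0.16 and 2.33 ± 0.23 at 300 min. PAT1 (AT5G48150), a GRAS family factor of phytochrome signalling, had 67.8, 86.5 and 65.6 CPM in flg22 leaves and 39.1, 36.2 and 29.6 CPM in Mock leaves at 180 min (1.06 ± 0.21). It had 35.5, 36.7 and 27.3 CPM in flg22 leaves against 45.8, 49.3 and 38.9 CPM in Mock leaves at 300 min (-0.43 ± 0.21). Without the 4 libraries of experiment 2 that clock genes set apart, only AT3G22750 was called (adjusted p = 0.0395). The count was 0 without Mock 300 min replicate 2, without Mock 180 min replicate 3 or without flg22 replicate 1 or 2 at 180 min or replicate 3 at 300 min. The count was 2 without Mock 180 min replicate 2, 16 without flg22 300 min replicate 1, 34 without Mock 300 min replicate 1 and 36 without Mock 300 min replicate 3. With the experiments as blocks 27 genes were called. For CEF the rise at 180 min itself was lost at an adjusted p of 0.132 (minus Mock replicate 1) and 0.0973 (minus flg22 replicate 2).

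List medians over time followed different courses, given here as a description. The heat shock list had medians of 1.31, 1.94, 3.02 and 0.78 at 60, 120, 180 and 300 min, with 13 genes higher at 180 min and 3 at 300 min. In the test of the difference between 180 and 300 min edgeR called 0 of its 16 members, DESeq2 1 and limma-voom 0, and 8 had an unadjusted p under 0.05. The CRK family was already at 2.07 at 60 min and stood at 2.26, 3.16 and 3.20 at the later times. The antenna and photosystem genes had medians of -0.05, -0.35, -0.51 and -1.11, and 42 of 45 were lower at 300 min. There too edgeR called 0 of 45 in the test of the difference, DESeq2 0 and limma-voom 0, and 26 had an unadjusted p under 0.05. The proteasome genes had medians of -0.03, 0.05, 0.08 and 0.63, with 26 of 38 higher at 300 min. Without the 4 libraries the heat shock medians were 0.97, 1.96, 3.06 and 1.25, with 6 genes higher at 300 min, and the CRK medians 1.71, 2.27, 3.18 and 3.08. The photosystem medians were then 0.03, -0.35, -0.48 and -1.18, and 21 proteasome genes were higher at 300 min.

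**Figure D5:**
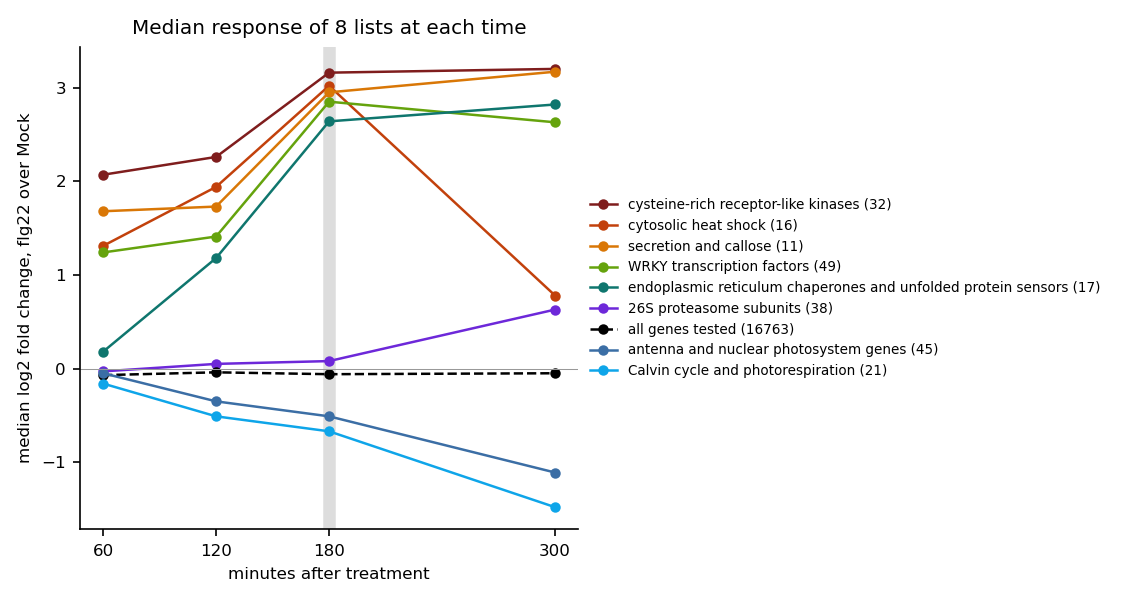
Median log2 fold change of flg22 over Mock leaves at 60, 120, 180 and 300 min for 8 lists and, as a dashed line, for all genes tested, which stay between -0.07 and -0.04. The heat shock median peaks at 3.02 at 180 min and is 0.78 at 300 min, the ER chaperone median climbs to 2.64 at 180 min, and the photosystem median declines to -1.11 at 300 min. The points at 60 and 300 min include Mock libraries that clock genes set apart.

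Finally the flg22 leaves were compared with leaves collected 180 min after Ed, which induces AvrRpt2. The time runs from the treatment, and how long AvrRpt2 had been present was not tested. AvrRpt2 cleaves the host protein RIN4, which the resistance protein RPS2 detects, and the design text assigns this treatment to effector-triggered immunity alone. Of 16763 genes 1223 were higher in flg22 leaves (7.3%) and 394 were lower (2.35%), or 1095 and 613 when libraries were scaled by their totals alone. Both directions together came to 1617 genes (9.65%), to 1025 without flg22 replicate 2, to 1043 without flg22 replicate 3, to 1050 without Ed replicate 3, and to 2509 without the 4 libraries of experiment 2 set apart above. This comparison shares the flg22 libraries with that against Mock, so the values of both are given side by side. The uncharacterized AT1G51913 had 11.1, 17.55 and 55.3 CPM in flg22 leaves, 0 counts in Ed leaves and 0 counts in Mock leaves. AT2G36690, described above, had 126, 219 and 312 CPM in flg22 leaves and 0.278, 0.262 and 0.23 CPM in Ed leaves (9.55 ± 0.94, adjusted p = 2.07e-09). The C1 domain gene AT2G17740 had 697, 934 and 1568 CPM in flg22 leaves, 1.39, 2.09 and 1.15 CPM in Ed leaves and 0.695, 0.403 and 2.74 CPM in Mock leaves (9.40 ± 1.10 against Ed and 10.03 ± 1.16 against Mock). The small GTPase gene RABA1e (AT4G18430) had 43.6, 92.3 and 134 CPM in flg22 leaves and 0, 0.262 and 0 CPM in Ed leaves. The peroxidase gene AT4G36430 had 15.3, 17 and 44.4 CPM in flg22 leaves and 0, 0 and 0 CPM in Ed leaves. By list, 12 of 17 genes of the ER list and 10 of 16 heat shock genes were higher in flg22 than in Ed leaves.

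Some genes that flg22 raised over Mock were lower than under Ed. WRKY46 (AT2G46400), a factor involved in defence, had 7.06, 4.33 and 7.72 CPM in flg22 leaves, 244, 87.2 and 34.1 CPM in Ed leaves and 0.463, 0 and 1.09 CPM in Mock leaves (-4.25 ± 0.86 against Ed, adjusted p = 0.0004). Its rise over Mock was 3.96 ± 1.32, a call lost at an adjusted p of 0.087 (minus Mock replicate 1), 0.127 (minus Mock replicate 2) and 0.0594 (minus flg22 replicate 3), and of 0.0617 with limma-voom. MPK11 (AT1G01560), a MAP kinase, had 5.42, 8.14 and 10.3 CPM in flg22 leaves and 126, 60.2 and 28.8 CPM in Ed leaves (-3.18 ± 0.70), with 0.232, 0.805 and 1.64 CPM in Mock leaves (3.35 ± 1.00 over Mock). The call over Mock was lost at an adjusted p of 0.0856 (minus Mock replicate 1). OM66 had 32.3, 35.6 and 22.5 CPM in flg22 leaves and 434, 218 and 103 CPM in Ed leaves (-3.06 ± 0.86). The uncharacterized AT5G22520 and AT5G52760, of a copper transport protein family, had log2 fold changes of -3.79 ± 0.68 and -2.84 ± 0.87 against Ed. In these genes Ed replicate 1 was highest and Ed replicate 3 lowest. RIN4 (AT3G25070) itself had 45.2, 66.1 and 67.5 CPM in flg22 leaves and 19.9, 21.3 and 27.4 CPM in Mock leaves (1.39 ± 0.27, adjusted p = 0.000127). RPS2 (AT4G26090) had 9.89, 10.7 and 4.82 CPM in flg22 leaves and 2.55, 6.44 and 7.12 CPM in Mock leaves, where the groups overlapped (0.72 ± 0.65, adjusted p = 0.455).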

How the data were processed

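The deposited table holds raw counts of 3′ tags for 25036 genes in 60 libraries, per the labels made by Smart-3SEQ from reads that begin with a 5-base molecular identifier and have 8 bases to trim. Per the submitters' processing notes, bcl2fastq 2.17.1.14, STAR 2.4.2a and TAIR10 were used by the authors. Not given in the sources used here are the counting tool, its annotation, the use of strand and the treatment of duplicate identifiers. A count may thus be a read or a molecule, and overlapping, antisense and near-identical genes may share tags. Names and promoters came from RefSeq's TAIR10.1, which matched 24888 genes (99.4%).

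Genes were filtered with filterByExpr (16763 kept), scaled by TMM and tested with edgeR 4.0.16 (R 4.3.3) by the quasi-likelihood F test. The fit took in 20 groups and 60 libraries, without a block, with 40 residual degrees of freedom and Benjamini-Hochberg adjustment over genes. The value after ± beside a log2 fold change is its size divided by the square root of F. Where no tool is named, an adjusted p is edgeR's, and libraries of a group are from independent experiments.

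The experiments pair the libraries: per the design text a replicate number is an experiment, and deviations from group means correlated at 0.525, 0.174 and 0.5 between libraries of the same number. The fit without the block had been set as the main one. Blocked values are given where they moved a count by over 1.5 times.

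The comparison, the 23 lists and 16 families and the other tests were chosen with earlier results of these data known. Of 453 list entries 46 matched no gene or more than 1, and 36 genes were left out because another gene's name matched a pattern or symbol, 35 before and 1 (AT5G01830) after its values were seen. AT4G20270 (BAM3) and AT4G36290 (CRT1) are further matches of this kind that stayed in their lists. FLS2, PEN2 and the mutated genes were looked up by locus. Named genes are the 10 largest rises and falls and the 8 largest gains and losses of mean CPM among called genes with at least 5 CPM in 1 group and 1 direction in all experiments. To these come, per list, the 3 largest changes, the most abundant called member and called members against the majority, and the 5 largest per direction in each other test. Not all are described. Lists got no test of their own.

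On simulated counts of 16382 genes, the comparison with Mock called 22.4% of 2-fold and 79% of 4-fold changes, with 5.61% of calls unchanged genes. For the difference from 120 min 46% of 4-fold changes were called, and for that from 300 min 50%. Alternatives used limma 3.58.1 (voom) and DESeq2 1.42.0, and tables and figures used Python 3.11.15, pandas 2.3.3, SciPy 1.17.1 and matplotlib 3.10.9.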

Additional observations from a re-analysis of the deposited data

Results flagged for a closer look

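The effect of flg22 over Mock differed between 180 and 300 min by a direct test of the difference in 10 genes. The log2 effect at 180 min minus that at 300 min was -2.61 for AT3G22750, -2.45 for the cysteine protease gene RD21B (AT5G43060), -2.20 for HA2, -1.66 for AT5G65000, -1.64 for CEF, -1.29 for AT1G64190, -1.16 for the proton pump gene VP2 (AT1G78920) and -1.13 for SAM1. It was 1.49 for PAT1 and 3.66 for MIPS2 (AT2G22240), an enzyme of inositol synthesis. At 300 min MIPS2 had 2.38, 2.52 and 1.34 CPM in flg22 leaves and 8.1, 54.3 and 3.58 CPM in Mock leaves, the high one in the Mock library of experiment 2 that clock genes set apart, and at 180 min it had 7.3, 7.89 and 8.68 CPM in flg22 leaves and 6.02, 7.65 and 6.02 CPM in Mock leaves. Without the 4 libraries set apart its difference was 1.79 (adjusted p = 0.127 by edgeR), and of the 10 genes AT3G22750 alone was still called.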

How the results depend on the processing

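The comparison of flg22 with Mock at 180 min called 3723 genes, and 3231 without the filter to 4847 without the 4 libraries of experiment 2 under the 9 alternatives that kept all 6 libraries, with 78.0 to 99.9% of the 3723 called in the same direction. Leaving out 1 library gave 2315 to 3807 for this comparison, 0 to 0 for the difference from 120 min, 0 to 36 for that from 300 min and 1025 to 1773 against Ed. The 353 called members of lists became 261 to 361. The difference from 120 min had 0 calls, but 10 without the 4 libraries, 1 with only the groups compared and 15 with DESeq2. The difference from 300 min had 10 calls (2 higher, 8 lower), but 2 without the filter, 27 with the replicate block, 1 without the 4 libraries, 0 with only the groups compared, 47 with DESeq2, and 0 higher and 15 lower with library sizes alone. Against Ed 1617 genes were called, 2509 without the 4 libraries, and the share of rises was 75.6%, or 64.1% with library sizes alone. Scaling by library sizes alone moved the median of all genes by -0.0694. The replicate block gave 4112 calls against Mock and ended no call of a named gene, and it moved other list counts by less than 1.5 times. Of 2979 values of 199 named genes under alternatives 2699 kept direction and call, 280 lost the call and 0 reversed, and 71 genes lost it without some library. Low counts limit the precision of genes near 0 in Mock leaves, and Mock replicate 3 was the shallowest library.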
